A study of Mus musculus with 12 samples.

Results

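The mRNAs described here encode the proteins of the mitochondrial ribosome. The members were chosen by gene symbol alone: every gene in the deposited tables named Mrpl or Mrps followed by a number and at most 1 letter. This gave 77 genes, 48 with an Mrpl and 29 with an Mrps symbol, of 16617 named genes present in both compartments. All 77 passed the filter on low counts, so none was lost to it, and 15990 genes were tested in all.

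The study measured RNA in the neurites and in the cell bodies (soma) of cultured dorsal root ganglion neurons of adult C57B6 mice. Neurites were separated from soma with a porous membrane, through which neurites grow while cell bodies stay on top. Each culture came from the ganglia of 1 mouse and was grown for 3 days on inserts with 1 µm pores. The genotypes were GAR+/+ (WT) and GAR+/- (het). GAR stands for a stretch of nucleolin, an RNA-binding protein, that is rich in glycine and arginine, and the title of the study calls the axons nucleolin deficient. The 4 groups were WT soma, WT neurites, het soma and het neurites, each with 3 libraries. The series describes 3 independent biological repeats, and nothing else differed between the groups according to the labels. Ages beyond adult, and the way the allele was made, are not given in the labels. The ganglia also hold glia, fibroblasts and vascular cells, and markers of these cells were measured in all libraries.

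Mitochondria keep a small genome of their own, and the few proteins it encodes are subunits of the oxidative phosphorylation complexes. A dedicated ribosome inside the organelle translates them. Its rRNAs come from mitochondrial DNA, but all of its proteins are encoded in the nucleus, made in the cytosol and imported. A mature particle joins a large subunit, which forms peptide bonds, to a small subunit, which decodes the mRNA. Many of its proteins descend from bacterial ribosomal proteins, and others were added or strongly diverged in mitochondria. Because axons hold mitochondria far from the nucleus, mRNAs for mitochondrial proteins are often examined in neurites.

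Of the 77 members, 50 encode large-subunit proteins and 26 small-subunit proteins. Of the large-subunit proteins, 30 have a bacterial counterpart and 20 are specific to mitochondria or strongly diverged. The small subunit had 16 and 10. Mrps18a and Mrps30 were placed with the large subunit, where their proteins reside despite the symbol. Mrps36 was assigned to neither, since its protein is known as a component of the alpha-ketoglutarate dehydrogenase complex. The members lay on 17 chromosomes of GRCm38, with at most 10 on one chromosome (chromosome 11).

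Sequencing totals ranged from 14965973 to 32434916 counts per library. One library stood apart for the members. In het neurites 3, 68 of 77 members lay above their own mean over the 12 libraries, and 36 of 77 had their highest value there, against 11.3% of all tested genes. The median member deviation in that library was 0.22 on the log2 scale, while the median of all genes was -0.02. In the other 11 libraries the median member deviation lay between -0.10 (WT neurites 2) and 0.07 (WT neurites 1). For each contrast that this library enters, the member median and the number of members above 0 are given with and without it. The edgeR calls between genotypes in neurites are too. The splits by abundance and role, the other scalings and the DESeq2 and limma voom calls are given only with it.

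**Figure D1:**
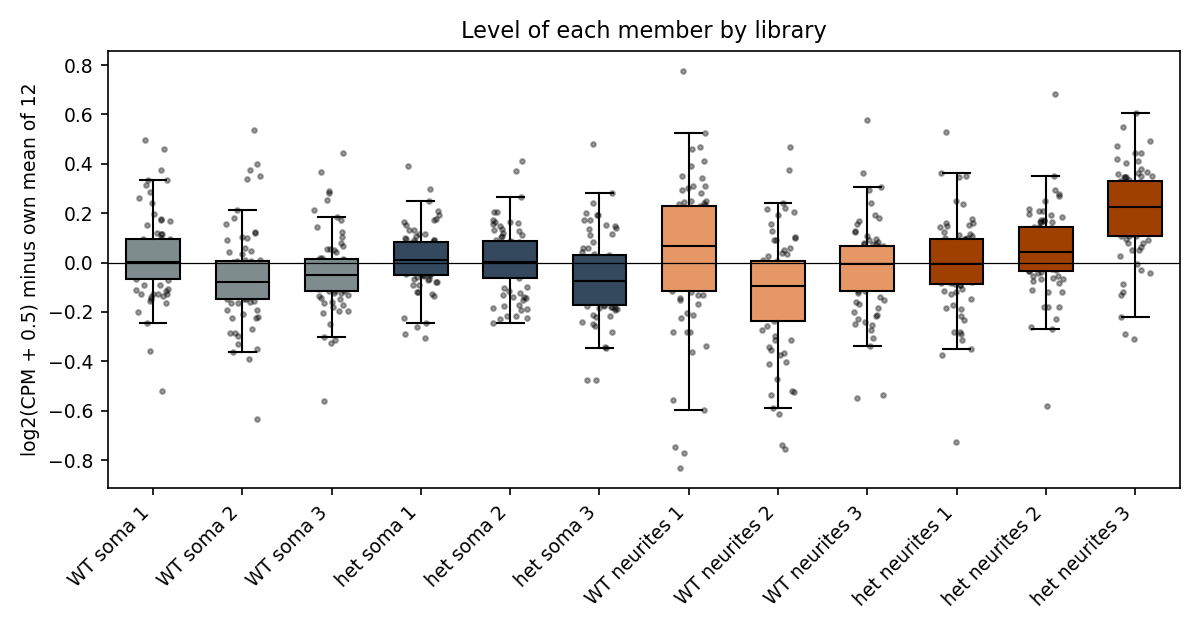
Each point is 1 of the 77 members in 1 library, as log2(CPM + 0.5) minus the member's own mean over 12 libraries. Boxes show quartiles and the median, and whiskers reach the farthest point within 1.5 times the box height. The box of het neurites 3 lies above 0, with a median of 0.22.

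The start regions of 3 members that were higher in neurites are printed so that the letters searched for in all promoters can be seen in place. The windows end 10 bases before the annotated start and are read 5′ to 3′ on the gene's strand. They come from RefSeq promoters of GRCm38.p6, in which 68 of the 77 members had an entry. Capitals mark matches to the ETS letters CCGGAAG or their reverse complement and to the YY1 letters AAGATGG, where the window holds one. The positions are chr14:54426759-54426898 on the plus strand for Mrpl52, chr4:126046778-126046917 on the plus strand for Mrps15 and chr14:20393645-20393784 on the minus strand for Mrps16.
Mrpl52: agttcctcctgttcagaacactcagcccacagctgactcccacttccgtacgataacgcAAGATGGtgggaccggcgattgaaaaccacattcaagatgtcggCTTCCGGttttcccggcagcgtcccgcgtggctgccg
Mrps15: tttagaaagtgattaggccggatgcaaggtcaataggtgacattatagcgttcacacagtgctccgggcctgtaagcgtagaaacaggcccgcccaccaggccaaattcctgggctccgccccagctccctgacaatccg
Mrps16: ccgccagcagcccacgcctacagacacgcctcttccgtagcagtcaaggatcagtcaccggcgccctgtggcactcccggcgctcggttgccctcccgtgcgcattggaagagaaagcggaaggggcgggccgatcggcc

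The Mrpl52 window held a match of each kind, and the printed windows of Mrps15 and Mrps16 held none. Over the full 250 bases searched, Mrps16, which had 2 promoter entries, did hold CCGGAAG outside the printed window. Mrps15 held no match there either. Over the 250 bases before the start, searched on both strands, CCGGAAG was present in 17 of 68 members (25%), against 7.83% of all 27025 genes in the RefSeq table and 14.3% of the tested protein-coding genes. The NRF1 letters GCGCA, any 1 base, then GCGC were present in 10 members (14.7%), against 4.23% and 8.78%. AAGATGG was present in 6 members (8.82%), against 5.18% and 5.05%, and the E-box CACGTG in 5 (7.35%), against 6.86% and 9.63%. ETS factors, NRF1 and YY1 are known regulators of nuclear genes for mitochondrial proteins. A match describes letters in a window and is not evidence of binding. Median GC content was 58.2% in the members' windows and 60% in those of the tested protein-coding genes.

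Members also often sat head to head with another gene. A protein-coding neighbour on the opposite strand started within 1000 bp, with up to 100 bp of overlap, at 19 of 77 members (24.7%). The share was 10.2% of the 13209 tested protein-coding genes. Some of these neighbours also serve mitochondria. Mrps12 faced Sars2, the mitochondrial seryl-tRNA synthetase, at 172 bp, and Mrpl36 faced Ndufs6, a subunit of respiratory complex I, at 29 bp. In the pair with the highest member value, the log2 fold change between neurites and soma, averaged over the genotypes, was 0.42 for Mrps18c and 0.05 for Helq, its neighbour at 29 bp.

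Levels of different members were compared per length, as counts divided by transcript length and scaled to a total of 1000000 in each library. The member with the highest level was Mrpl52, a mitochondria-specific protein of the large subunit, at a mean of 249 over the 12 libraries (range 182 to 332). Mrpl42 (221, range 145 to 264), Mrpl54 (196, range 140 to 280), Mrpl30 (171, range 127 to 225) and Mrpl32 (171, range 118 to 207) followed, all of the large subunit. The ranges of these neighbours in the order overlapped, so their order is not settled. At the other end stood Mrpl1 (0.927), Mrps2 (1.89), Mrps23 (2.34), Mrps11 (2.58) and Mrpl23 (3.32). The median was 47.7 for the large subunit (range 0.927 to 249) and 14.4 for the small subunit (range 1.89 to 151).

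Levels per length went with the number of annotated transcripts. Members with 1 or 2 annotated transcripts had a median of 64.2 (n = 21), those with 3 to 5 a median of 23.0 (n = 34) and those with 6 or more a median of 17.5 (n = 22). Over all genes the same 3 classes had medians of 6.44, 11.4 and 11.01, so the order was not the same. The deposited counts are per transcript, and how reads shared by several transcripts were counted is not given in the sources used here. For 10 members, under 50% of the counts lay on protein-coding transcripts, and for 5 (Mrpl2, Mrpl32, Mrpl38, Mrpl53 and Mrps10) no coding transcript was present in both tables. The low value of Mrps2, with 24.5% of its counts on coding transcripts, is one such case. Changes of one gene between groups do not depend on length, but differences between genes may carry this limit.

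**Figure D2:**
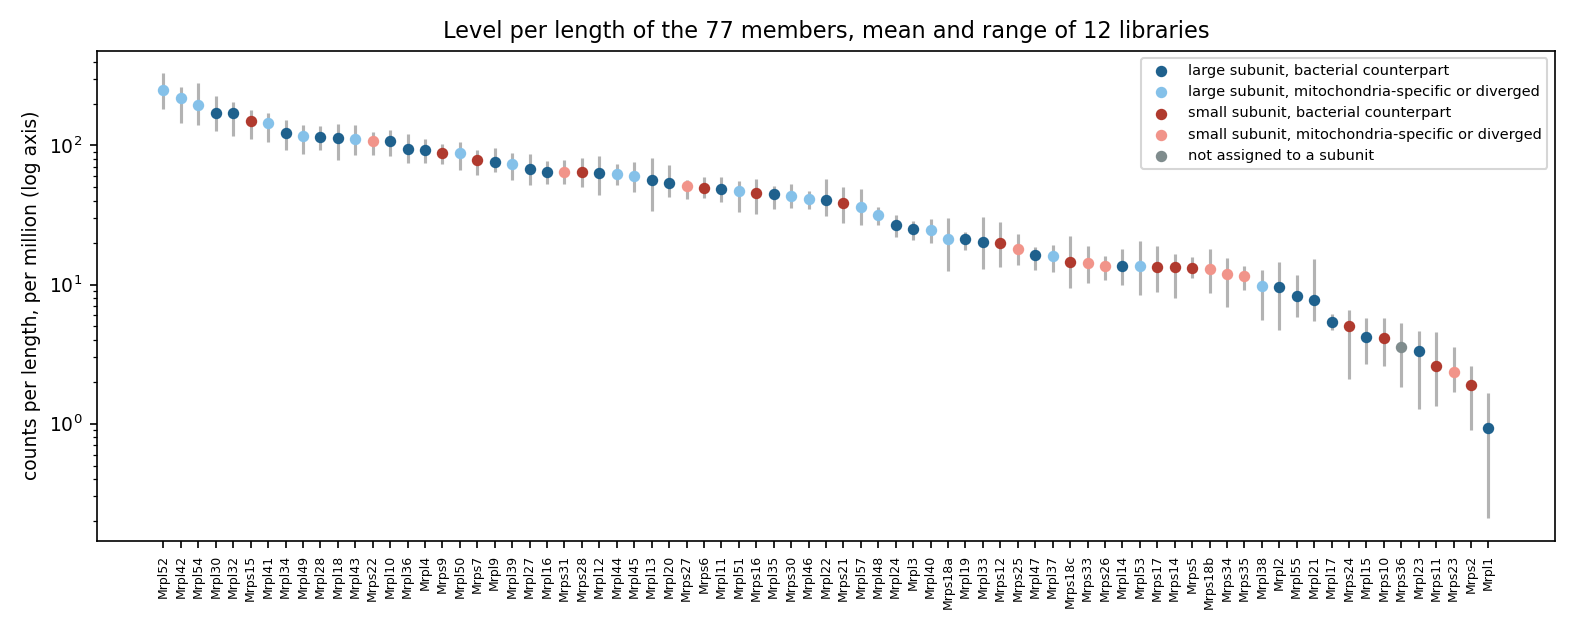
Level per length of the 77 members on a log axis, highest at left. Points are means and grey lines the range over 12 libraries, and colours give the subunit and the origin of the protein. Levels run from 249 for Mrpl52 to 0.927 for Mrpl1.

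Summed over all members, the level varied little between groups. In WT soma the sum was 2289 ± 61.3 CPM (SD, n = 3), and the het soma libraries gave 2315 ± 105 CPM (SD, n = 3). It was 2375 ± 144 CPM in WT neurites (2540, 2272 and 2311) and 2570 ± 236 CPM in het neurites (2401, 2470 and 2839). CPM are counts per 1000000 of the TMM-scaled library. All 3 het neurite libraries lay above all 3 of het soma, which reached at most 2392, while the libraries of WT neurites overlapped those of WT soma, which ran from 2225 to 2347. In these bulk libraries, fewer cells of a type and less RNA per cell cannot be told apart.

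In WT cultures, which mRNAs differ between neurites and cell bodies was asked by comparing WT neurites with WT soma. No member passed an adjusted p of 0.05 in edgeR's quasi-likelihood test, against 3.1% of all genes tested (495 of 15990). At an unadjusted p under 0.05 there were 4 higher and 1 lower member, 6.49% of the members and 19.6% of all genes. The DESeq2 Wald test called 2 members (Mrps15 and Mrps25) and 6.92% of all genes, and limma voom called 0 members. For limma voom the share of all genes is not given here in any contrast. The median log2 fold change was 0.02 over the members and 0.01 over all genes, and 40 of 77 members were above 0 (50.7% of all genes). With upper-quartile scaling the member median was -0.05, the all-gene median -0.06, and 28 of 77 members were above 0 (42.5% of all genes). That scaling also moved the share of higher genes among all called genes from 77.8% to 54.7%. The member median was also below 0 without WT neurites 1 (-0.04, 30 of 77 above 0) and without WT soma 2 (-0.03, 37 above 0). Without WT neurites 3, 13 members had an unadjusted p under 0.05, but the share of all genes in that fit is not given here. The count of all called genes ranged from 93 (without WT soma 2) to 1081 (without WT neurites 2) with 1 library left out.

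The members named next are those with the smallest p in each direction, higher ones first. Mrps25, a mitochondria-specific protein of the small subunit, was at 33.0, 30.1 and 34.4 CPM in WT soma and at 47.8, 37.3 and 39.6 CPM in WT neurites. The groups did not overlap, and the log2 fold change was 0.36 ± 0.11 (SE; edgeR adjusted p = 0.0902). Samples with the same number deviated together in these 2 groups, and with the replicate number as a block Mrps25 passed (0.35 ± 0.10, edgeR adjusted p = 0.0369), the 1 member called, against 9.44% of all genes. Mrps15 had a log2 fold change of 0.31 ± 0.10 (edgeR adjusted p = 0.096) and Mrpl52 one of 0.26 ± 0.11 (edgeR adjusted p = 0.199).

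On the lower side, Mrps12, whose protein lies at the decoding centre of the small subunit, was at 7.92, 7.98 and 7.08 CPM in WT soma and at 5.32, 4.71 and 5.80 CPM in WT neurites. The groups were separate, with a log2 fold change of -0.53 ± 0.20 (edgeR adjusted p = 0.148). Mrpl14 was at -0.43 ± 0.22 (edgeR adjusted p = 0.3) and Mrps18b at -0.38 ± 0.20 (edgeR adjusted p = 0.311). Over all members, 8 were higher and 5 lower without overlap between the 3 and 3 libraries, 16.9% of the members against 22.3% of all genes.

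In het cultures, no member passed in edgeR's test of neurites against soma, against 0.638% of all genes (102). At an unadjusted p under 0.05, 12 members were higher and 1 lower, 16.9% of the members, against 14.4% of all genes. DESeq2 called 2 (Mrpl52 and Mrps28; 3.05% of all genes) and limma voom 0. The member median was 0.13 (all genes -0.01), and 62 of 77 were above 0, against 49.2% of all genes. Without het neurites 3 the median was 0.06 and 47 of 77 were above 0 (49.3% of all genes). In that fit 5 members had an unadjusted p under 0.05, for which the share of all genes is not given here. The count of all called genes was 0 without het soma 1, het soma 2 or het neurites 1, 1 without het soma 3 and 24 without het neurites 3. Without overlap between libraries, 18 members were higher (11.7% of all genes) and 4 lower (10.6%), and without het neurites 3, 19 were higher (17.4%) and 14 lower (16.6%).

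The largest of these differences by p was in Mrpl52, at 44.8, 40.3 and 40.2 CPM in het soma and 51.2, 50.9 and 62.7 CPM in het neurites. All 3 neurite libraries were above all 3 of soma, with a log2 fold change of 0.39 ± 0.11 (edgeR adjusted p = 0.117), and of 0.29 ± 0.11 without het neurites 3 (edgeR adjusted p = 0.308). Mrps28, a small-subunit protein, was at 0.43 ± 0.13 (edgeR adjusted p = 0.147) and Mrps18c at 0.56 ± 0.19 (edgeR adjusted p = 0.198). Lower in neurites by value were Mrpl1, the protein of the mobile L1 stalk, at -1.26 ± 0.57 (edgeR adjusted p = 0.334), Mrpl24 at -0.21 ± 0.13 (edgeR adjusted p = 0.495) and Mrps18b at -0.30 ± 0.20 (edgeR adjusted p = 0.53). Mrpl1 rests on very few reads, with as few as 2 counts in 1 library and at most 1.13 CPM.

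Averaging the compartment difference over both genotypes uses 6 libraries on each side. Here 5 of 77 members were higher in neurites and 0 lower in edgeR's test. That is 6.49% of the members, against 12.2% of all genes (1950, of which 60.1% were higher). In the higher direction alone it is 5 of 77 against 7.33% of all genes, so the members were not called more often than genes at large. With upper-quartile scaling 2 members passed (Mrpl52 and Mrps15), against 12.8% of all genes, and 41.5% of the called genes were higher. The member median was then 0.02, with 41 of 77 above 0 (all-gene median -0.06, 41.5% above 0). The member median was 0.08 (all genes -0.00), with 53 of 77 above 0 (49.6% of all genes) and 76 of 77 within 0.5 of 0 on the log2 scale. Without het neurites 3 the median was 0.02, 48 were above 0 and 3 members were called, against 10.7% of all genes, of which 1, Mrps12, was lower.

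Mrpl52 (chr14:54426909-54429756, plus strand) was at 36.4 to 44.9 CPM in the 6 soma libraries, with a median of 40.2, and at 47.9 to 62.7 CPM in the 6 neurite libraries, with a median of 49.98. No neurite library was as low as any soma library. The log2 fold change was 0.33 ± 0.08 (SE; 1.26-fold, edgeR adjusted p = 0.0136), with the neurite mean higher in both genotypes. The deposited tables assign its counts to 1 transcript.

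Mrps15 (chr4:126046925-126055532, plus strand), counterpart of a bacterial protein that binds the small-subunit rRNA early in assembly, ranged from 48.8 to 58.5 CPM in soma and from 60.8 to 72.7 CPM in neurites. Again the compartments did not overlap. The log2 fold change was 0.29 ± 0.07 (1.22-fold, edgeR adjusted p = 0.0147). Mrpl52 and Mrps15 were called in 12 of 12 fits that each left out 1 library.

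The other 3 were less steady. Mrps28 (chr3:8802146-8923918, minus strand) was at 18.1 to 23.1 CPM in soma and 21.4 to 28.6 CPM in neurites, a log2 fold change of 0.32 ± 0.09 (edgeR adjusted p = 0.0318). Mrps16 (chr14:20389304-20393634, minus strand), a small-subunit protein with a bacterial counterpart, was at 44.1 to 53.1 and 50.6 to 66.5 CPM, with a log2 fold change of 0.27 ± 0.08 (edgeR adjusted p = 0.0383). Mrpl18 (chr17:12911349-12916345, minus strand), counterpart of a protein of the central protuberance of the bacterial large subunit, was at 46.1 to 60.6 and 58.5 to 74.8 CPM, with 0.30 ± 0.09 (edgeR adjusted p = 0.0417). In each of these 3 the highest soma library exceeded the lowest neurite library. Mrps28 was called in 6 of the 12 fits with a library left out, and Mrps16 and Mrpl18 in 4 each. Without het neurites 3 the edgeR adjusted p was 0.0276 for Mrpl52, 0.0291 for Mrps15, 0.0658 for Mrps28, 0.0709 for Mrps16 and 0.0869 for Mrpl18.

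**Figure D3:**
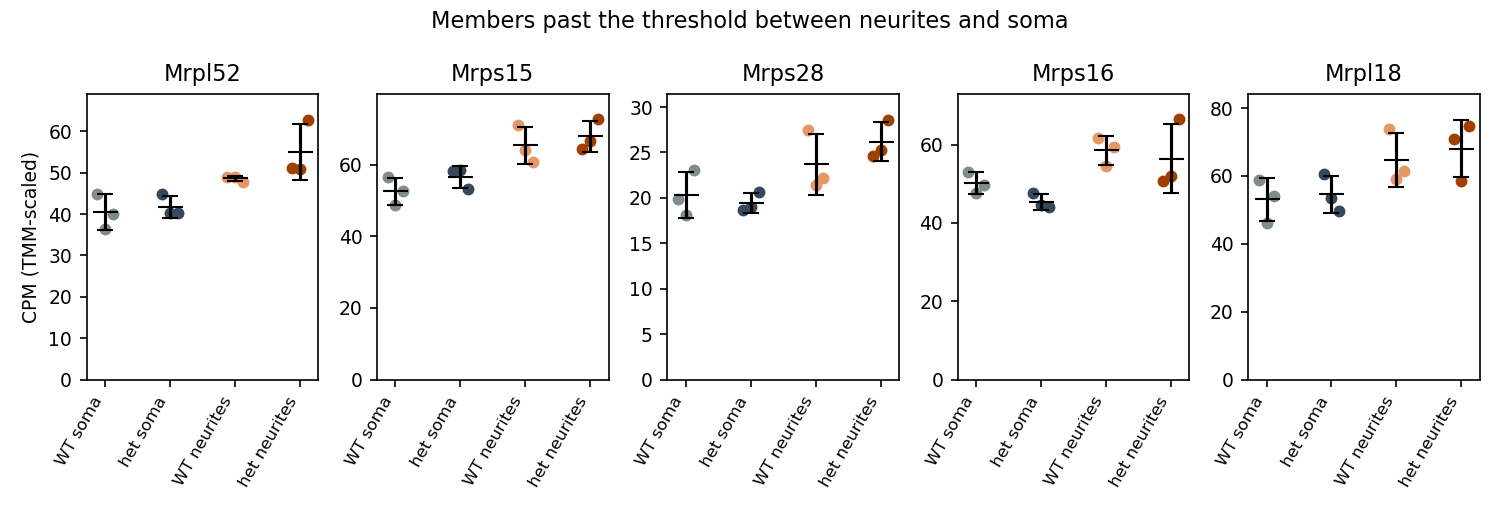
CPM of the 5 members past the threshold between neurites and soma averaged over both genotypes. Points are single libraries, bars the mean and SD of 3, and the axes start at 0. In Mrpl52 and Mrps15 no neurite library falls to the level of a soma library.

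Besides Mrpl52 and Mrps15, Mrps25 and Mrpl16 had no overlap between the 6 and 6 libraries, 4 of 77 members in the higher direction against 2.76% of all genes. Their log2 fold changes were 0.23 ± 0.08 for Mrps25 (edgeR adjusted p = 0.0591) and 0.20 ± 0.07 for Mrpl16 (edgeR adjusted p = 0.0856). No member was lower without overlap, against 1.46% of all genes. By abundance, the 53 members of at least 10 CPM had a median of 0.09, with 43 above 0, and included all 5 called members. Of the 7772 genes of at least 10 CPM, 974 were called higher and 546 lower, with a median of 0.03 and 55.2% above 0. The 24 members under 10 CPM had a median of -0.07, with 10 above 0. By role, 2 of 50 large-subunit members (median 0.08) and 3 of 26 small-subunit members (median 0.06) were called.

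**Figure D4:**
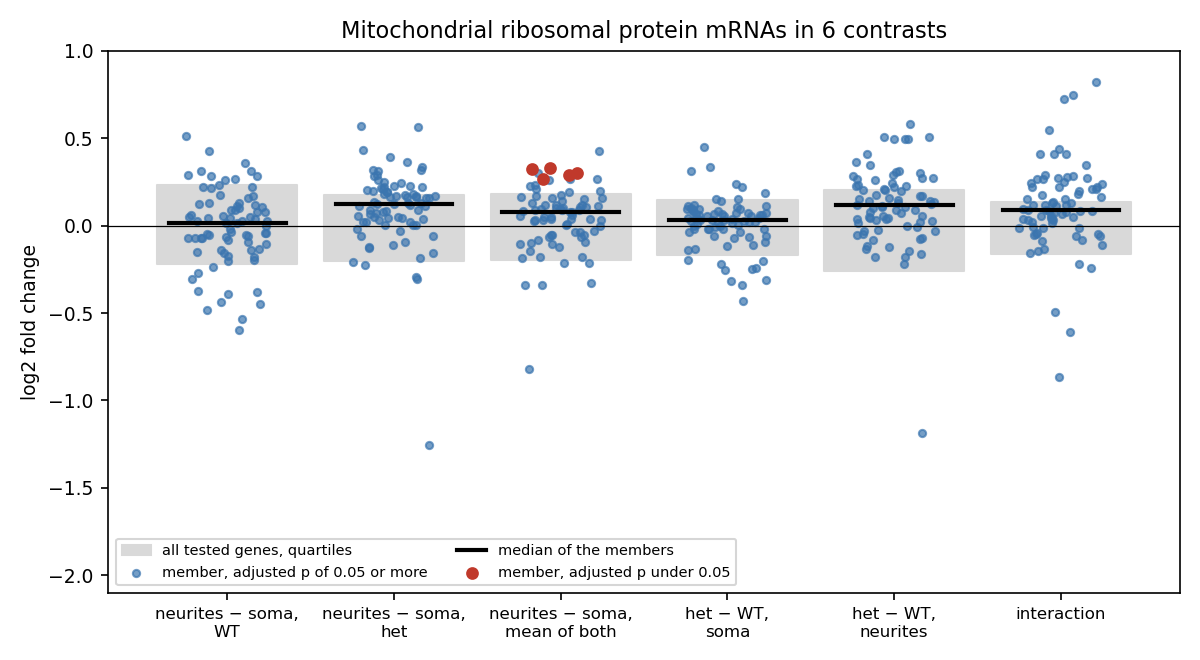
Log2 fold changes of the 77 members in 6 contrasts. Points are members, red where the edgeR adjusted p is under 0.05, black lines are member medians, and grey bands are the quartiles of all tested genes. The 5 red points lie in the average over both genotypes, and the member medians run from 0.02 to 0.13.

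Mrps18a, Mrps18b and Mrps18c are paralogs that trace to a single bacterial protein, S18. The protein of Mrps18c is the small-subunit counterpart, that of Mrps18b lies elsewhere in the small subunit, and that of Mrps18a belongs to the large subunit. Mrps18c was at 3.21 to 4.35 CPM in soma and 3.16 to 6.53 CPM in neurites. Its averaged log2 fold change was 0.42 ± 0.14 (approximate 95% interval 0.16 to 0.69, edgeR adjusted p = 0.0562), and the groups overlapped through WT neurites 1 and 2. With the DESeq2 Wald test its adjusted p was 0.0271, with coding transcripts only the edgeR adjusted p was 0.0350, and with the transcript of highest count only it was 0.0391. Mrps18b was at 4.67 to 6.72 CPM in soma and 3.29 to 5.41 CPM in neurites, with -0.34 ± 0.14 (interval -0.62 to -0.07, edgeR adjusted p = 0.123). Mrps18a was at 7.40 to 10.9 CPM in soma and 5.25 to 9.94 CPM in neurites, with -0.18 ± 0.14 (interval -0.45 to 0.09, edgeR adjusted p = 0.421). None of the 3 passed the threshold in the fit to summed counts, and the differences between the paralogs were not tested. Their counts may be divided among transcripts, since 66.2% of those of Mrps18a and 62.4% of those of Mrps18b lay on coding transcripts, against 91.0% for Mrps18c.

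Whether the GAR allele altered these mRNAs was asked in each compartment. In soma, no member differed between het and WT in edgeR's test, and neither did any other gene (0.0% of 15990). No member reached an unadjusted p under 0.05, against 9.16% of all genes, and both DESeq2 and limma voom called 0 members. The share of all genes called by DESeq2 is not given here for soma. With the replicate number as a block, 0 members and 3.25% of all genes were called. The member median was 0.03 (all genes 0.01), with 48 of 77 above 0 (51.5% of all genes) and all 77 within 0.5 of 0. Without overlap between libraries, 5 members were higher (8.86% of all genes) and 2 lower (11.9%).

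The members with the smallest p in soma were Mrpl3, at 17.6, 17.0 and 15.8 CPM in WT and 21.4, 19.9 and 18.3 CPM in het, with 0.24 ± 0.11 (edgeR adjusted p = 0.549), and Mrpl38, at 0.45 ± 0.22 (edgeR adjusted p = 0.573). The Mrpl3 libraries did not overlap. Mrpl19 was at 0.15 ± 0.11 (edgeR adjusted p = 0.754). In the other direction were Mrpl42 at -0.20 ± 0.10 (edgeR adjusted p = 0.603), Mrpl33 at -0.43 ± 0.23 (edgeR adjusted p = 0.617) and Mrpl13 at -0.25 ± 0.14 (edgeR adjusted p = 0.658). The paralogs had small values with wide intervals: 0.06 (-0.32 to 0.43) for Mrps18a, 0.06 (-0.32 to 0.44) for Mrps18b and 0.22 (-0.16 to 0.60) for Mrps18c.

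In neurites, no member passed between het and WT in edgeR's test, against 3.27% of all genes (523, of which 15.1% were higher, or 30.1% with upper-quartile scaling). At an unadjusted p under 0.05, 10 members were higher and 0 lower, against 7.72% and 13.2% of all genes. DESeq2 called 1 member (Mrpl57; 7.5% of all genes) and limma voom 0. The member median was 0.12 (all genes -0.01), with 58 of 77 above 0, against 48.5% of all genes. Without overlap, 13 members were higher (7.53% of all genes) and 0 lower (10.8%). Without het neurites 3 the median was 0.06, 47 were above 0, 3 had an unadjusted p under 0.05, and 14 were higher (11.6% of all genes) and 4 lower (13.8%) without overlap. Without WT neurites 1 the median was 0.18. With upper-quartile scaling it was 0.19, with 66 of 77 above 0 (all-gene median 0.05, 56.9% above 0), and 23 members had an unadjusted p under 0.05. The share of all genes at an unadjusted p under 0.05 is not given here for that scaling or with a library left out. The count of all called genes turned on single libraries. It was 0 without WT neurites 3, het neurites 2 or het neurites 3, 50 without WT neurites 1, 1110 without het neurites 1 and 1767 without WT neurites 2.

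Mrpl57, a small mitochondria-specific protein of the large subunit, was at 36.0, 40.2 and 43.1 CPM in WT neurites and 48.9, 46.0 and 63.6 CPM in het neurites. The groups were separate, and the log2 fold change was 0.41 ± 0.13 (SE; edgeR adjusted p = 0.0851). Without het neurites 3 it was 0.25 ± 0.11 (edgeR adjusted p = 0.305). Mrps34, a small-subunit protein whose gene is mutated in some forms of Leigh syndrome, was at 2.73, 3.90 and 4.98 CPM in WT neurites and 4.99, 6.14 and 6.47 CPM in het neurites, with 0.58 ± 0.21 (edgeR adjusted p = 0.135), or 0.51 ± 0.24 without het neurites 3 (edgeR adjusted p = 0.334). The closest libraries of those 2 groups nearly touched. Mrpl9 was at 0.29 ± 0.11 (edgeR adjusted p = 0.149), and at 0.19 ± 0.11 without het neurites 3 (edgeR adjusted p = 0.419).

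Among members lower in het neurites by value, Mrpl1 was at -1.18 ± 0.59 (edgeR adjusted p = 0.27), Mrpl13 at -0.22 ± 0.14 (edgeR adjusted p = 0.41) and Mrps25 at -0.15 ± 0.11 (edgeR adjusted p = 0.475). Mrps18c was at 0.49 ± 0.19 (edgeR adjusted p = 0.161), with het neurites at 5.72 to 6.53 CPM and WT neurites at 3.16 to 5.25 CPM. Mrps18a was at 0.30 ± 0.20 (edgeR adjusted p = 0.406) and Mrps18b at 0.14 ± 0.20 (edgeR adjusted p = 0.743). In the authors' deposited table, 0 of 170 member transcripts in soma and 0 of 159 in neurites had a false discovery rate under 0.05 for het against WT, where 4.24% and 3.02% of all transcripts did. Those calls are per transcript and from the authors' own comparison. The edgeR fit described above was per gene and called no gene in soma, and the reason for the difference was not tested. The median log2 fold change of the member transcripts in the authors' deposited table was 0.03 in soma and 0.12 in neurites.

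Markers of the cell types in the cultures moved between the same groups. Summed over 14 neuron markers, the level was 10901 to 14751 CPM in WT neurites and 13254 to 16999 CPM in het neurites, and 1 marker (Uchl1) was called, higher in het. The 9 satellite glia markers summed to 1615 to 1714 CPM in WT neurites and 1109 to 1408 CPM in het neurites, and 4 were called, all lower in het (Fabp7, Sox10, Sox2 and Apoe). The 10 Schwann cell markers summed to 1795 to 2050 and 1423 to 1781 CPM, with 3 called, all lower (Egr2, Prx and Gldn). None of these 8 calls was kept without het neurites 3, where the edgeR adjusted p was lowest for Fabp7 and Egr2 (0.0946 each) and highest for Uchl1 (0.168). The ranges of 8 fibroblast markers (1290 to 4072 and 1042 to 2136 CPM), 7 endothelial and pericyte markers (598 to 743 and 544 to 654 CPM) and 3 macrophage markers (6.30 to 11.4 and 6.95 to 23.3 CPM) overlapped, and none of these was called.

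Between compartments, the neuron markers summed to 14624 to 17062 CPM in WT soma and 15999.8 to 19756 CPM in het soma. In each genotype 1 neurite library reached into the range of soma, and the others lay below it. In the average over genotypes 4 of the 14 were lower in neurites, 5 of the 9 satellite glia markers were higher, and of the 10 Schwann cell markers 2 were higher and 1 lower. Satellite glia markers summed to 1061 to 1430 CPM in WT soma and 1002 to 1096 CPM in het soma. No tested marker was at 0 in any library. The part of these cell-type differences in the members' values was not tested.

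Whether the difference between neurites and soma itself depended on genotype was tested by the interaction, the het difference minus the WT difference. No member and no other gene passed in edgeR's test (0.0% of 15990), and DESeq2 and limma voom called 0 members. The share of all genes called by DESeq2 is not given here for the interaction. At an unadjusted p under 0.05 there was 1 member, Mrpl57, at 0.41 ± 0.18 (edgeR adjusted p = 1.0), against 1.26% of all genes. Mrpl53 was at 0.72 ± 0.37 and Mrpl12, the protein of the stalk that recruits translation factors, at 0.41 ± 0.21. Mrpl38 (-0.61 ± 0.31), Mrps25 (-0.24 ± 0.15) and Mrps23 (-0.49 ± 0.43) had the smallest p below 0. The median was 0.09 (all genes -0.02), with 56 of 77 above 0 (46.8% of all genes), and without het neurites 3 it was 0.04 with 46 above 0. In that fit Mrpl57 was at 0.25 ± 0.15 and Mrpl53 at 0.44 ± 0.36, and the 1 member with an unadjusted p under 0.05 was Mrpl38, at -0.80 ± 0.32 (edgeR adjusted p = 1.0). The interaction and the separate contrasts share libraries, so their member values are not independent.

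Other parts of mitochondrial gene expression were read from fixed lists. In the average over genotypes, 12.2% of all genes were called. Of 6 subunits of the mitochondrial ribosome with other names, 1 was called in that average and 0 in the other contrasts. This was Chchd1, a small-subunit protein, higher in neurites by 0.46 ± 0.10 (edgeR adjusted p = 0.00874). None of 17 translation factors, 21 tested ribosome assembly factors or 17 tRNA synthetases was called between compartments. Of 19 genes of mitochondrial DNA expression and its regulators, 1 was called in that average, Gabpa, a subunit of an ETS factor that activates such genes, at 0.30 ± 0.08 (edgeR adjusted p = 0.0191). Of 26 genes of protein import, 1 was higher and 1 lower in neurites: Tomm7 at 0.38 ± 0.09 (edgeR adjusted p = 0.0145) and Tomm20, an import receptor, at -0.38 ± 0.07 (edgeR adjusted p = 0.00542).

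Between genotypes in neurites, 2 genes of these lists were called, against 3.27% of all genes. Polg, the mitochondrial DNA polymerase, was lower in het, at -0.59 ± 0.13 (edgeR adjusted p = 0.0302), and Rars2, the mitochondrial arginyl-tRNA synthetase, was higher, at 0.74 ± 0.19 (edgeR adjusted p = 0.0468). Neither passed without het neurites 3, at -0.64 ± 0.15 (edgeR adjusted p = 0.117) and 0.71 ± 0.21 (edgeR adjusted p = 0.171), and with each library left out in turn Polg was called in 6 and Rars2 in 2 of 12 fits. In soma and in the interaction none was called. Among the synthetases, Lars2 ranged from 30.3 CPM in het soma 1 to 2465 CPM in het soma 3, and the WT soma libraries were at 74.2 CPM or less.

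The cytosolic ribosome and the oxidative phosphorylation complexes, made partly from the proteins that mitochondrial ribosomes translate, were set beside the members as a description. In WT, 12 of 82 cytosolic ribosomal protein mRNAs were higher in neurites and 0 lower (median 0.14), where 0 of 77 members were called (median 0.02). Of all genes, 3.1% were called in that contrast. In the average over genotypes it was 28 of 82 (median 0.19) against 5 of 77 (median 0.08), where 12.2% of all genes were called and 7.33% were called higher. For the 81 nuclear oxidative phosphorylation mRNAs it was 6 higher and 1 lower (median 0.05). In neurites, het against WT, the medians were 0.04, 0.12 and 0.14 for the cytosolic, mitochondrial ribosomal and oxidative phosphorylation mRNAs. These include het neurites 3, without which the member median was 0.06. The medians of the other lists without that library are not given here, so the lists can be compared only with it included. The cytosolic list summed to 9796 CPM in that library, and to 8222 and 8129 CPM in het neurites 1 and 2. The oxidative phosphorylation list summed to 8060 CPM there, and to 6776 and 7363 CPM in het neurites 1 and 2. The differences between these lists were not tested.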

How the data were processed

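Members, lists and tests were chosen with earlier results of these data known. Per the file headers, the authors deposited raw counts per Ensembl transcript and library, 1 table per compartment, and, as the authors' own comparison of het with WT, log2 fold changes with p-values. Per the submitters' processing notes, CASAVA 1.8.2, edgeR and mm10 (GRCm38) were used; no source used here names an aligner or a counting program. A further 24 per-sample columns were not used. Counts of transcripts present in both tables were summed per gene name. Transcripts with no gene name (0.574% to 0.694% of counts) were left out. GENCODE M21 gave positions and lengths.

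Genes were filtered (filterByExpr), TMM-scaled and fitted with edgeR 4.0.16 (R 4.3.3; robust quasi-likelihood, 1 mean per group, 12 libraries), with Benjamini-Hochberg adjustment over 15990 genes and a threshold of 0.05. SE is the log2 fold change divided by the square root of F, and tests are 2-sided. Intervals use a normal approximation with that SE, so they are narrower than the quasi-likelihood test implies. A count of 0 allows up to 3 counts. The fit was tested on simulated data. Alternatives were DESeq2 1.42.0, limma 3.58.1 voom, other scalings and filters, a replicate block, and leaving out libraries. Library numbers paired WT soma with WT neurites (correlation of deviations 0.23 to 0.34 for each number) and WT soma with het soma (0.16 to 0.27).

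Named members are those past the threshold, or the 3 with the smallest p in each direction where none passed, the 5 highest and lowest per length, and the 3 Mrps18 paralogs. Mrpl16, Mrpl27, Helq, Lars2 and the genes of the head-to-head pairs were chosen after their values were seen.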

Additional observations from a re-analysis of the deposited data

How the results depend on the processing

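The count of called members depended most on the setting in the comparison averaged over genotypes, where 5 were called. Of all genes, 12.2% were called there. It was 2 with upper-quartile scaling (12.8% of all genes), 9 with the replicate number as a block (19.9%) and 8 with genotype and number as the block (19.2%). It was 9 with the DESeq2 Wald test and 8 with protein-coding transcripts only, a setting chosen after seeing the data. The share of all genes called in the average is not given here for either setting. No result about the members is read from those counts. Leaving out 1 library gave 2 members without WT soma 2, het soma 2 or WT neurites 1 (6.94%, 6.76% and 8.71% of all genes). It gave 11 without WT neurites 2 (16.8%). It gave 3 without WT soma 3, het soma 1, het soma 3, WT neurites 3 or het neurites 3 (8.21% to 10.7%). In the single contrasts, with 0 called, DESeq2 called 2 in WT and 2 in het between compartments and 1 between genotypes in neurites (6.92%, 3.05% and 7.5% of all genes). The replicate number as a block called 1 in each of these 3 (9.44%, 4.18% and 10.6%). Leaving out 1 library gave 0 to 1. It was 1 without WT neurites 2 in WT (6.62%) and 1 without het neurites 1 between genotypes in neurites (6.81%). Mrps18c was among the members called in the average with the number as a block (edgeR adjusted p = 0.0290) and with genotype and number (0.0404). Both blocks also added Mrpl13 (edgeR adjusted p = 0.0219 and 0.0243) and Mrps25 (0.0278 and 0.0419). The number alone added Mrpl27 (edgeR adjusted p = 0.0487). In the single contrasts, the number as a block called Mrps25 in WT, Mrpl52 in het and Mrpl57 between genotypes in neurites. The numbers did not pair every library in het soma with het neurites (correlations 0.05 to 0.26) or in WT with het neurites (-0.04 to 0.22).

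Without TMM scaling, 4 members did not overlap between genotypes in soma and 21 in neurites. The directions and the share of all genes without that scaling are not given here, so no result about the members is read from these counts. With only the transcript of highest count, the median level per length was 33.6 in place of 40.6. Signs changed only for Mrps18a and Mrps18b among the named members, all uncalled. With 1 library left out, Mrps18a ranged from -0.1641 to 0.0092 between het compartments (above 0 without het neurites 2) and from -0.0528 to 0.2472 between genotypes in soma (below 0 without WT soma 2 or 3, at -0.0528 and -0.0075). There it was -0.0188 with the transcript of highest count and -0.0274 with coding transcripts. Mrps18b ranged from -0.0558 (without WT soma 3) to 0.1484 between genotypes in soma, where it was -0.0403 without het soma 2, from -0.0138 (without WT neurites 1) to 0.3591 in neurites, and from -0.0753 (without WT neurites 1) to 0.2974 in the interaction, where it was -0.0088 without WT soma 1. The cause was not tested. Of the remaining values, 258 of the main results stayed within their limits, and of those for single members 1079 did, with 15 stronger and 25 weaker. A fit of only the libraries compared could not give every contrast, nor could the block by genotype and number for contrasts between genotypes.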
